A study of Sus scrofa with 6 samples.

Results

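The baseline miRNA content of the left atrium (LA) was described in the 3 sham pigs of a study of 6 pigs, each measured on 1 microarray. All 322 pig miRNA probes of the array were kept, so no miRNA was chosen for its value. The study set sham pigs against pigs whose atria were paced in rapid bursts, and the 3 paced arrays were not analysed here. Sham pigs received anaesthesia and a catheter in the right atrium but no burst pacing, and LA tissue was taken on the following day. They are Large White pigs given as 3 months old in the study's methods, whereas the labels describe neonatal piglets. No genetic change is named for them. The methods give esmolol, a beta adrenergic blocker, before pacing and do not state whether the sham pigs received it. The catheterised animals are therefore a sham baseline and not untouched animals. Total RNA of a whole LA sample was labelled with the dye Cy3, so the values average over cardiomyocytes, fibroblasts, vessels and any blood in the tissue. In such a bulk sample, fewer cells of a type and less miRNA per cell cannot be told apart.

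miRNAs are short RNAs that guide a silencing complex to messenger RNAs, mainly through pairing of the seed, which is bases 2 to 8 of the mature strand. A hairpin precursor is cut into a duplex whose strands are named 5p and 3p after the arm they come from. One strand, the guide, is usually loaded into the complex, and the other, the passenger, is usually degraded. Heart muscle is known for miR-1, the miR-133 miRNAs and miR-499, which act in muscle growth, conduction and contractile gene expression.

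The mature sequences that the array was designed to detect are shown here for the miRNAs on which the results turn, 5′ to 3′, as given with each probe in the deposited scanner files. The seed is in capitals. The first set holds the 8 brightest probes and miR-1.
miR-133a-3p: uUGGUCCCcuucaaccagcug
miR-133b: uUUGGUCCccuucaaccagcuau
miR-125b: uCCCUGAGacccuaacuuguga
miR-26a: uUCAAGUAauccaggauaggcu
miR-24-3p: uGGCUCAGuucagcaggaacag
miR-145-5p: gUCCAGUUuucccaggaaucccuu
miR-451: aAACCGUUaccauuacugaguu
miR-27b-3p: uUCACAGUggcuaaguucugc
miR-1: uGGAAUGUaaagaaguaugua
The second set holds members of the brightest families, which share a seed and differ elsewhere.
let-7a: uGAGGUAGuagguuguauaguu
let-7f: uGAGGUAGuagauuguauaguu
let-7e: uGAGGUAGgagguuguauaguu
miR-98: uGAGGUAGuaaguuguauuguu
miR-30b-5p: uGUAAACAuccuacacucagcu
miR-30c-5p: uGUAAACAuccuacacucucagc
miR-30d: uGUAAACAuccccgacuggaagcu
miR-30e-5p: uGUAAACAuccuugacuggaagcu
The third set holds entries whose sequences nearly coincide, which limits what their separate signals can mean.
miR-339-5p: uCCCUGUCcuccaggagcucac
miR-339: uCCCUGUCcuccaggagcuca
miR-4334-3p: uCCCUGUCcuccaggagcuc
miR-218b: uUGUGCUUgaucuaaccaugug
miR-218: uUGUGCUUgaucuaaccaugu
The fourth set holds arms that were not well above background although the other arm of the same hairpin was bright.
miR-24-1-5p: gUGCCUACugagcugaaacacagu
miR-126-5p: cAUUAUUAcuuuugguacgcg
miR-30c-3p: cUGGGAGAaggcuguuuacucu

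Each probe was printed in 9 repeat spots. The signal share used below is the background-corrected brightness of a probe as a percentage of the summed brightness of all 322 probes on the same array. It is a share of signal and not of molecules, because probes bind and miRNAs are labelled with unequal efficiency. Abundance and probe effect cannot be told apart between different probes. The arrays gave summed background-corrected signals of 616545, 401551 and 446761 scanner units in sham replicates 1, 2 and 3, and the brightest miRNA spot reached 29842 scanner units, below the control spots that reached 57881. Sham replicate 1 stood apart. Its 786 empty spots had a median of 214 scanner units with an SD of 60.7, compared with 64.7 and an SD of 8.35 on sham replicate 2 and 117 and an SD of 16.1 on sham replicate 3.

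A probe counted as detected, or well above background, where its median repeat spot was brighter than the empty-spot median plus 3 SD of the empty spots on that array. By this rule 126 of the 322 probes (39.1%) were detected on all 3 arrays, 34 on 2 arrays, 17 on 1 array and 145 (45.0%) on none. The detected set was decided by sham replicate 1, on which exactly 126 probes passed, compared with 175 on sham replicate 2 and 162 on sham replicate 3. Without sham replicate 1, 160 probes were detected on both remaining arrays. The 126 probes held 97.4 ± 1.13% (SD, n = 3) of the summed signal, and the 145 probes detected on no array held 1.40 ± 0.764%. The corrected signal keeps a small positive value on empty spots, and 1 such spot read as 0.0212%, 0.00487% and 0.00700% of the summed signal on the 3 arrays. Shares of undetected probes are therefore not levels and are not ranked.

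The signal was concentrated in few miRNAs and its order was similar in the 3 animals. The brightest 10 probes held 35.1 ± 3.12% of the signal (SD, n = 3), and the brightest 25 held 61.6 ± 3.76%. Over the mean shares, 18 probes made up 50% of the signal, 37 made up 75% and 65 made up 90%. Spearman's rho between pairs of arrays lay between 0.976 and 0.989 over the 322 probes, which share their sequences and printing on every array, and is given as a description. The share curve of sham replicate 1 was flatter, as the brightest 25 held 57.2% on it and 63.4% and 64.0% on the other arrays. With plain subtraction of the empty-spot median the same sums were 60.3%, 64.3% and 65.3%.

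**Figure D1:**
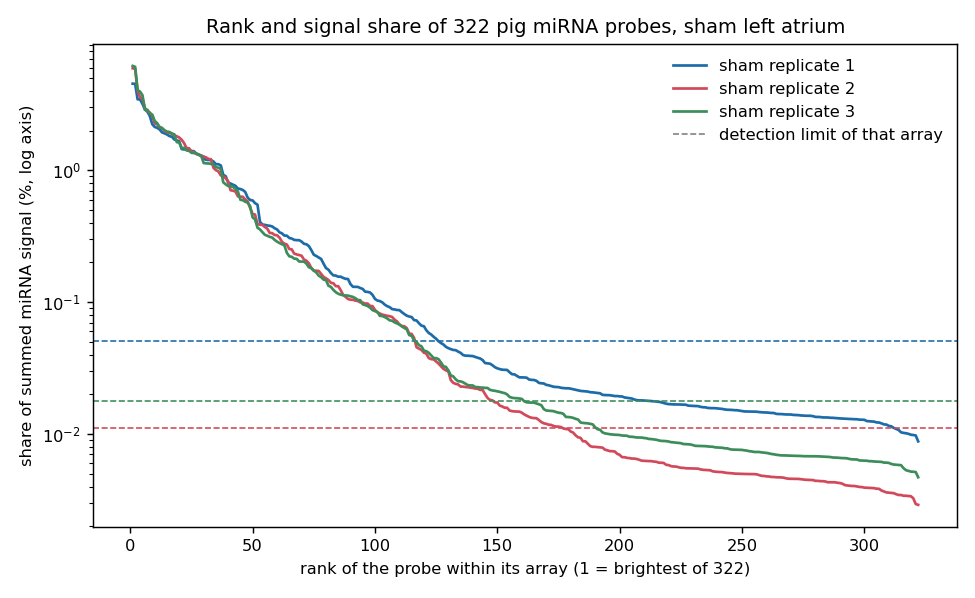
Signal share (percent, log axis) of each of the 322 probes against its rank within its own array, 1 line per sham animal, with the detection limit of each array dashed. The lines lie close together over about the brightest 50 ranks, after which sham replicate 1 lies highest. The limits are 0.0507%, 0.0111% and 0.0178% on sham replicates 1, 2 and 3.

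miR-133a-3p and miR-133b, which restrain growth signalling and are enriched in heart and skeletal muscle, gave the brightest signals. miR-133a-3p held 4.53%, 5.94% and 6.19% of the signal in sham replicates 1, 2 and 3, a mean of 5.56 ± 0.893% (SD, n = 3). miR-133b held 4.54%, 5.89% and 6.09%, a mean of 5.51 ± 0.844%. Sham replicate 1 was the lowest for both. It was also the lowest with plain subtraction, at 4.80% compared with 6.03% and 6.32% for miR-133a-3p. These probes cannot be read as separate measurements, since their targets have 20 bases in a row in common and their signal ratio was 1.01 ± 0.00870 (SD, n = 3). The listed pig miR-133b carries an additional U at its 5′ end, which shifts its seed by 1 base relative to miR-133a-3p.

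The next places were held by miRNAs that are not restricted to muscle. miR-125b, a broadly expressed miRNA, held 3.45%, 4.003% and 4.05% in the 3 animals. miR-26a, known in the atrium for targeting the inward rectifier potassium channel gene KCNJ2, held 3.19%, 3.59% and 3.71%. miR-24-3p held 2.89%, 2.97% and 3.95%, with sham replicate 3 above the other animals. miR-145-5p, which favours the contractile state of smooth muscle cells, held 2.78%, 3.46% and 2.88%. miR-451, the red cell miRNA that is matured by Argonaute 2 without Dicer, held 3.45%, 2.74% and 2.89%, and was highest in sham replicate 1. The values of these 5 miRNAs overlapped between neighbours in the order.

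miR-27b-3p followed at 2.69 ± 0.105% (SD, n = 3), miR-23b at 2.45 ± 0.301% and miR-30b-5p at 2.21 ± 0.163%. miR-22-3p, a miRNA abundant in cardiac muscle, held 2.15 ± 0.0793%. miR-23a held 2.09 ± 0.200% and miR-126-3p, the endothelial miRNA encoded within EGFL7, held 2.04 ± 0.0800%. miR-1, which with miR-133a is transcribed from shared muscle precursors, held 1.82%, 1.93% and 2.28%, a mean of 2.01 ± 0.239% and rank 14. The remaining places down to rank 25 lay between 1.99% and 1.39% and belonged to miR-30c-5p, miR-30d, miR-16, let-7a, let-7f, miR-143-3p, miR-99a, miR-378, miR-125a, let-7g and miR-30e-5p.

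The order within the top 25 was only partly fixed. Of these 25 probes, 21 were among the brightest 25 on every array, and 29 probes entered the brightest 25 on at least 1 array. Each of the 25 was compared with the next probe in the order. In 5 of these 25 pairs the same probe was brighter on all 3 arrays, and in 1, miR-133b above miR-125b, the ranges of the animals did not overlap. The ranges of all other neighbours overlapped. Within every array the order also held for miR-125b above miR-26a, miR-27b-3p above miR-23b, miR-23b above miR-30b-5p and let-7a above let-7f. miR-1 was below both miR-133 probes on all 3 arrays, but the unequal probe response noted above was not tested.

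**Figure D2:**
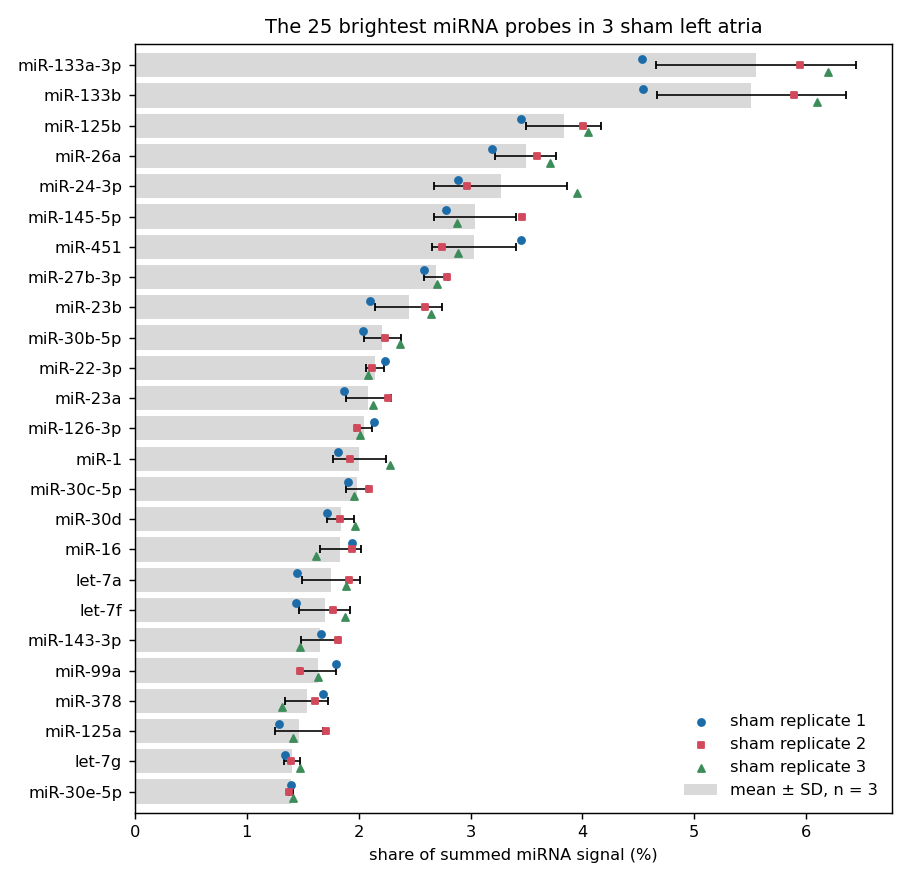
Signal share (percent) of the 25 brightest probes, with bars for the mean, error bars for the SD (n = 3) and 1 symbol per sham animal. The miR-133 probes at 5.56% and 5.51% lie apart from a graded series from 3.83% to 1.39% in which neighbouring values overlap.

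Probes with a common seed were then summed, because such miRNAs can pair with the same target sites. The 322 probes fell into 261 seed families, of which 39 had 2 or more probes. These 39 families held 100 probes and 51.5% of the signal, and 63 of the 100 probes were detected on all arrays, compared with 63 of the 222 probes that stood alone in their family (28.4%) and with 39.1% of all probes. Several families contain near-identical members, so these shares include any cross-hybridisation.

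The let-7 family, which restrains proliferation and marks differentiated tissue, was the brightest. Its 8 members were detected on all 3 arrays, and together they held 8.33%, 9.72% and 9.75% of the signal, a mean of 9.27 ± 0.808% (SD, n = 3). Its signal was spread over several probes. As 7 of the 8 lie in 1 near-identical group, how the miRNAs themselves were spread over members was not tested. let-7a held 1.75 ± 0.260%, let-7f 1.70 ± 0.228%, let-7g 1.40 ± 0.0703%, let-7i 1.37 ± 0.0650%, let-7c 1.29 ± 0.179% and let-7d-5p 1.26 ± 0.145%. let-7e was dimmer at 0.427% and miR-98 at 0.0767%, although they are within 1 and 2 base changes of let-7a. The miR-98 probe was 22.8 times dimmer than that of let-7a.

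The miR-30 family, which includes miR-30d and is known in the heart for restraining connective tissue growth factor, came next. Its 5 members held 7.84%, 8.25% and 8.48%, a mean of 8.19 ± 0.324%. The members miR-30b-5p, miR-30c-5p, miR-30d and miR-30e-5p lay between 2.21% and 1.39%, and miR-30a-5p held 0.755%. The single-probe seeds of miR-133a-3p and miR-133b followed. miR-125b and miR-125a together held 5.30 ± 0.507%, of which miR-125b made up 72.3%. miR-23b and miR-23a held 4.53 ± 0.490%, and miR-27b-3p and miR-27a held 3.86 ± 0.167%. The 6 probes with the miR-15 and miR-16 seed, a family that slows the cell cycle, held 3.11 ± 0.434%, and this family was highest in sham replicate 1 at 3.51% compared with 3.17% and 2.64%. The 10 brightest families, including those of miR-26a and miR-24-3p, held 52.1% of the signal with 29 probes.

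**Figure D3:**
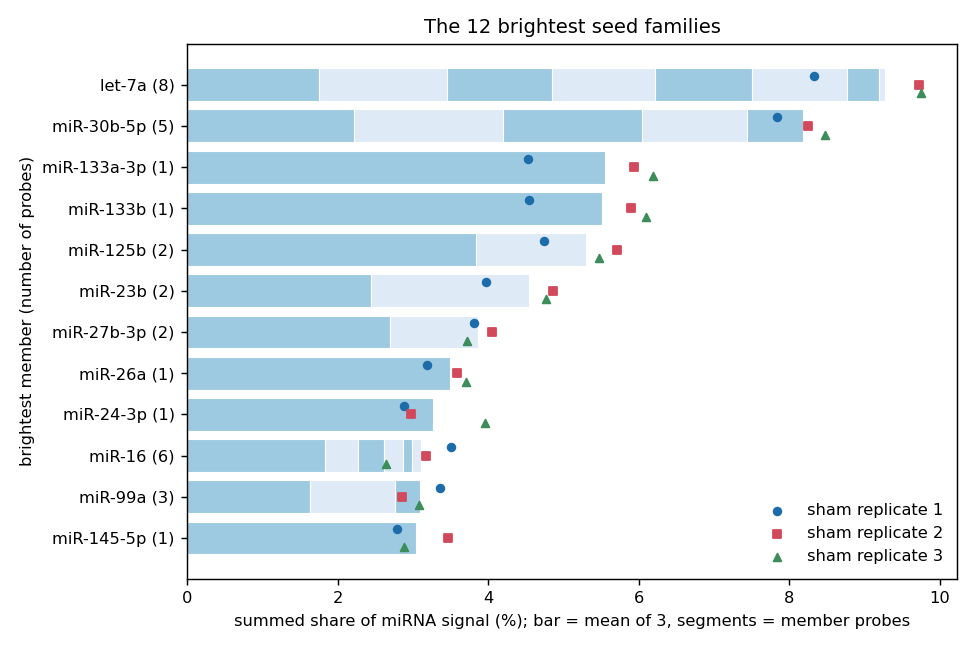
Summed signal share (percent) of the 12 brightest seed families, named by their brightest member with the number of probes in brackets. Bars are means over 3 sham animals, segments are member probes and symbols are single animals. The let-7 bar at 9.27% is built from 8 probes, whereas the miR-133a-3p bar at 5.56% is 1 probe.

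Near-identical entries were a large part of the array. Grouping probes whose targets differ by at most 2 single-base edits gave 28 groups with 63 probes and 33.2% of the signal. Some such probes read alike. miR-103 and miR-107 had a ratio of 1.06 ± 0.00377 (SD, n = 3), and miR-199a-3p and miR-199b-3p had a ratio of 1.20 ± 0.0249. miR-4334-3p, listed as a pig miRNA with its own number, has a 20-base target that lies whole within miR-339-5p, and its ratio to that probe was 1.18 ± 0.0138. The signals of miR-4334-3p and miR-339-5p cannot be told apart.

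Other near-identical probes read very differently. miR-218b holds the whole of miR-218 and 1 further base at the 3′ end, yet its probe was 5.50 ± 0.937 times brighter (n = 3), and miR-218 was detected on 2 arrays only. miR-450c-5p, detected on all 3 arrays, has 21 bases in a row in common with miR-450a, which was detected on none. miR-19b, detected on all 3 arrays at 0.324%, differs by 1 edit from miR-19a, which was detected on 1 array only. A large difference in signal between such probes is a difference in measurement, and whether it reflects the miRNA or the probe was not tested.

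Most marker miRNAs of muscle and connective tissue were detected on all arrays. None of the listed epithelium, nerve or liver markers with a probe on the array was. In the muscle list, 7 of 9 probes were detected on all 3 arrays, against 39.1% of all probes, and the list held 14.1%, 16.6% and 17.3% of the signal, a mean of 16.0 ± 1.71% (SD, n = 3). Of this, 11.1 ± 1.74% came from miR-133a-3p and miR-133b, which cannot be read as separate measurements. The sum may therefore count some signal more than once. Besides the miR-133 probes and miR-1 the list included miR-378, encoded within the metabolic coactivator gene PPARGC1B, at 1.54 ± 0.194%. miR-499-5p, encoded within the myosin gene MYH7B, held 1.11%, 0.871% and 1.05%. miR-208b, encoded within the beta myosin heavy chain gene MYH7, was detected in all animals but dim, at 0.0584%, 0.0636% and 0.0729%. miR-206, which shares its seed with miR-1 and is typical of skeletal muscle, was detected on no array, and neither was miR-499-3p. The labelled tissue thus showed heart muscle miRNAs without the skeletal muscle miR-206.

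In the fibroblast and matrix list all 9 probes were detected on all arrays, against 39.1% of all probes, with 8.34 ± 0.546% of the signal. Its brightest members were miR-199a-3p at 1.33 ± 0.0957%, miR-199a-5p at 1.24 ± 0.0952%, miR-21 at 1.15 ± 0.0798% and miR-199b-3p at 1.11 ± 0.0978%. miR-214, which lies next to miR-199a in the genome, held 1.01 ± 0.110%. Of the miR-29 miRNAs, which repress collagen genes, miR-29a held 0.957% and miR-29c 0.775%, whereas miR-29b held 0.0480%. The smooth muscle list held 4.75 ± 0.504% with 3 of 4 probes detected on all arrays, against the same 39.1%. In it, miR-143-3p held 1.65 ± 0.170% beside miR-145-5p, and miR-143-5p was not well above background. In the endothelial list 3 of 5 probes were detected on all arrays, against 39.1% of all probes. The other 2, miR-126-5p and miR-221-5p, were on none, a proportion near the 45.0% of all probes. The list held 2.34 ± 0.181%, most of it from miR-126-3p, while miR-221-3p held 0.188% and miR-222 held 0.0907%.

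Blood miRNAs were uneven. miR-451 was rank 7 at 3.03 ± 0.376%, while miR-486, another red cell miRNA that also occurs in muscle, held 0.0839 ± 0.00583%. miR-144, whose gene lies within 10 kb of miR-451, was detected on no array. How much blood the LA samples held was not measured. In the leukocyte list 2 of 8 probes were detected on all arrays and 4 on none, against 39.1% and 45.0% of all probes. Detected on all arrays were miR-150 at 0.172 ± 0.0121% and miR-146a-5p at 0.0745 ± 0.0286%. miR-155-5p was detected on 2 arrays and miR-146b on 1, and both miR-142 arms, which are abundant in blood-forming cells, were detected on no array.

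None of the 4 epithelial probes (miR-182, miR-183, miR-205 and miR-429) was detected on any array. Only these 4 of the 11 names in the epithelial list had a probe. The others, among them miR-141 and the miR-200 miRNAs, were not measured. None of the 9 nervous system probes, among them miR-9, miR-124a and miR-137, was detected on any array, whereas 45.0% of all probes were detected on none. Of the 3 matched liver probes, miR-122 and miR-215 were on none and miR-192 was on 2 arrays. The list name miR-194 matched no probe, since the array names miR-194a and miR-194b. miR-194a was detected on 2 arrays and the miR-194b arms on none. The imprinted DLK1-DIO3 locus is a large miRNA cluster that is active in embryonic and placental tissue. Of 18 listed probes from it, 1 was detected on all arrays and 16 on none, against 39.1% and 45.0% of all probes. The detected list member was miR-127 at 0.0612%, 0.0370% and 0.0513%, and miR-411 was on 1 array. The list does not cover the whole locus, as miR-299 and miR-758 are not in it. miR-299 was detected on all arrays, just above the limit on sham replicate 1, and miR-758 on none.

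Among 30 probes for pig miRNAs between miR-4331 and miR-4339 and between miR-7134 and miR-7144, 4 were detected on all arrays and 23 on none, again against 39.1% and 45.0% of all probes. The 4 were miR-4334-3p at 0.255%, discussed above with miR-339, miR-7134-3p at 0.181 ± 0.0279%, miR-7134-5p at 0.0782 ± 0.0117% and miR-4331 at 0.0336%. miR-4331 was among the 3 probes nearest above the detection limit, with miR-145-3p and miR-299, which exceeded the empty spots of sham replicate 1 by 3.42, 3.42 and 3.00 SD. The 3 nearest below were miR-18a, miR-7138-5p and miR-532-5p, at 2.75, 2.69 and 2.51 SD on that array, and all 3 passed on sham replicates 2 and 3.

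**Figure D4:**
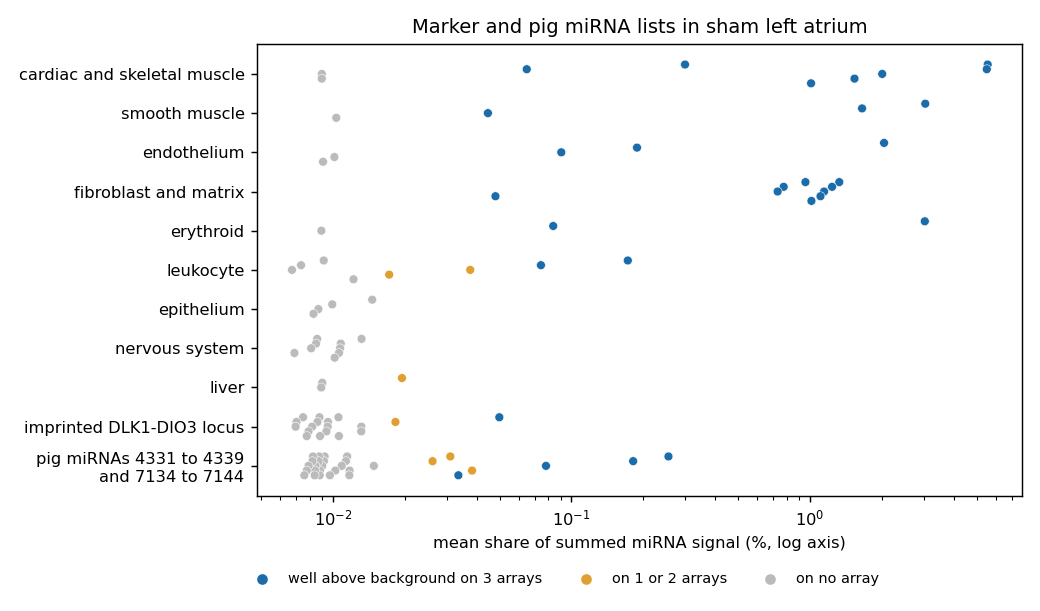
Mean signal share (percent, log axis) of every probe in 11 lists, 1 point per probe, coloured by the number of sham arrays on which it was well above background. Muscle and fibroblast points reach 5.56% and 1.33%, whereas all epithelial and nervous system points lie in the undetected range near 0.01%.

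Guide and passenger strands were compared as the log2 ratio of 5p to 3p signal within each array, which needs no scaling between arrays. The array held both arms of 80 hairpins, and the 45 with at least 1 arm well above background on all 3 arrays were tested in limma against a ratio of 0. In 44 of 45 pairs (97.8%) the arms differed at an adjusted p under 0.05. The 5p arm was brighter in 24 (53.3%) and the 3p arm in 20 (44.4%), and in these 44 pairs the same arm was brighter on all 3 arrays. A pair that passed through 1 bright arm had to differ, and this was so for 33 pairs, so the count itself is not a result about the arms. Of the 12 pairs with both arms detected on all arrays, 11 differed, 5 towards 5p and 6 towards 3p. The test covers the spread between animals and not unequal probe response. The 45 pairs use 88 probes, since miR-30c-5p and miR-24-3p each serve 2 hairpins.

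In 20 of the 45 pairs the dimmer arm was detected on no array, and the size of such a ratio is only bounded. The bound sets the brighter arm against the lowest signal of any detected probe on the same array. With these pairs at their bounds, the median size of the log2 ratio was 2.88, compared with a median SD between animals of 0.19. Over the 12 pairs with both arms detected on all arrays the median was 2.31.

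The 5 hairpins with the most negative measured ratios were miR-24-1, miR-126, miR-27b, miR-24-2 and miR-143. In 3 of them the 5p arm was detected on no array. miR-24-3p was at least 95.7-fold brighter than miR-24-1-5p. miR-126-3p was at least 60.5-fold brighter than miR-126-5p, and miR-143-3p at least 48.8-fold brighter than miR-143-5p. These 3 pairs passed the filter only through their bright 3p arm and had to differ, so no p-value is given for them. The 5p arms of miR-27b and miR-24-2 were detected on 2 arrays. Their mean log2 ratios were -6.54 ± 0.12 (SE) and -6.34 ± 0.15, and these sizes rest partly on an array where the 5p arm was not detected. The order among these hairpins was not determined. The miR-24-3p probe reads the product of both miR-24 hairpins, so the miR-24-1 and miR-24-2 ratios cannot be assigned to either alone.

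At the other end were 3 hairpins of the miR-30 family with miR-145 and miR-499. miR-30c-5p was at least 58.8-fold brighter than miR-30c-3p and miR-30c-1-3p, which were detected on no array. The miR-30c-5p probe serves both hairpins, so neither ratio can be assigned to 1 hairpin alone. miR-30b-3p was detected on 1 array, and the measured mean for miR-30b was 6.31 ± 0.13 (SE). miR-30a, with its 3p arm on 2 arrays, had a mean of 4.01 ± 0.11. miR-30e had both arms on all arrays, with its 3p arm at 0.109% and a mean of 3.56 ± 0.11. miR-499-5p was at least 29.9-fold brighter than miR-499-3p. In miR-145 both arms were detected on all arrays, and the log2 ratios were 5.52, 5.96 and 5.89. Their size still depends on the background correction. The smooth muscle hairpins thus differed in direction, miR-143 towards 3p and miR-145 towards 5p.

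Other hairpins gave signal from both arms. In miR-199a the ratios were -0.10, 0.06 and -0.26, and the arms did not pass the test (mean -0.10 ± 0.12, SE, limma adjusted p = 0.409). The related miR-199b was moderately biased to 3p at -0.59 ± 0.11 (adjusted p = 0.000381). The 3p targets of miR-199a and miR-199b have 21 bases in a row in common. Their 3p signals, and so these ratios, cannot be assigned to either hairpin alone. miR-28 was biased to 5p at 0.82 ± 0.11, miR-193a to 3p at -0.89 ± 0.12 and miR-7134 to 3p at -1.11 ± 0.11. miR-133a, whose 3p probe was the brightest, had a ratio of -4.16 ± 0.12, and its 5p arm was still detected at 0.299 ± 0.0236%. The miR-133a-3p signal cannot be read apart from miR-133b, so this ratio cannot be assigned to miR-133a alone. The passenger arms of miR-22 at 0.154%, miR-151 at 0.130% and let-7d at 0.0891% were also above background on all arrays.

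**Figure D5:**
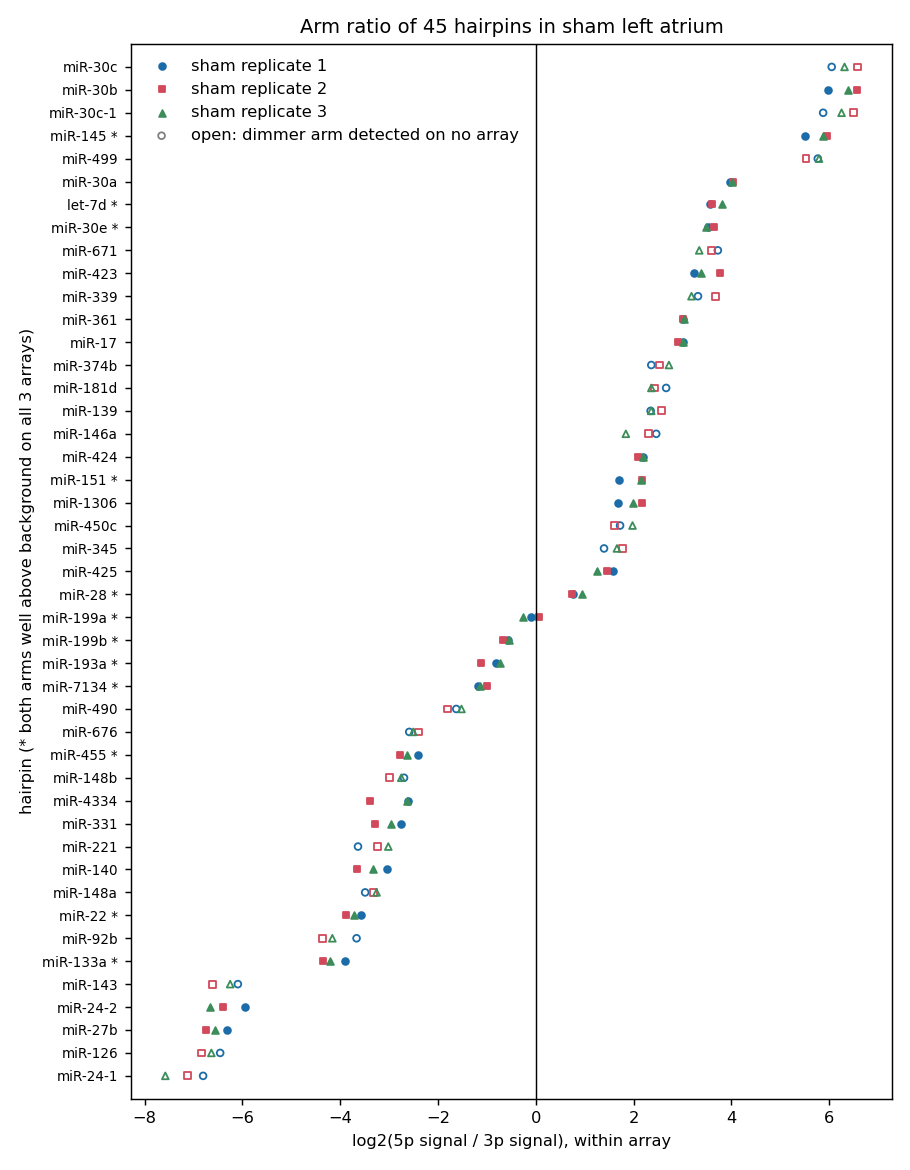
Log2 ratio of 5p to 3p signal for 45 hairpins, 1 symbol per sham animal, sorted by mean, with an asterisk where both arms were detected on all 3 arrays. Open symbols mark the 20 hairpins whose dimmer arm was detected on no array, and miR-199a lies across 0. Sizes depend on the background correction, in these hairpins and in others.

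Some neighbouring miRNA genes differed widely in signal. By the RefSeq gene table of the pig, 295 of the 322 probes could be matched to a miRNA gene, and 110 of them lay in 38 clusters of genes within 10 kb of each other. The cluster of miR-23b, miR-27b and miR-24 held 8.46% of the signal and that of miR-23a, miR-27a and miR-24 held 6.54%, both counting the shared miR-24-3p probe. In the cluster of miR-206 and miR-133b, the miR-133b probe read 5.51% and miR-206 was not detected. As noted above, the miR-133b signal cannot be read apart from miR-133a-3p, so this contrast cannot be assigned to the neighbouring genes. In the cluster of miR-451 and miR-144, miR-451 was bright and miR-144 was not detected. Other neighbours read alike, as miR-199a and miR-214 were within 1.31-fold, and miR-99a at 1.64% and let-7c at 1.29% within 1.27-fold. However, let-7c differs by 1 edit from let-7a, and miR-99a by 1 edit from miR-100. miR-199a-3p has 21 bases in a row in common with miR-199b-3p. These close values therefore cannot be assigned to the neighbouring genes either.

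Most detected miRNAs varied little between the 3 animals. Over the 126 probes the median coefficient of variation was 13.4% between animals and 7.12% between repeat spots of an array. For 98 of them the highest animal was within 1.5-fold of the lowest. The most even were miR-30e-5p (1.40%, 1.38% and 1.41%), miR-191 (0.709%, 0.690% and 0.690%), miR-22-3p, miR-126-3p and miR-27b-3p, with SDs of the log2 share between 0.02 and 0.06. The most uneven were miR-4331, miR-489, miR-146a-5p, miR-455-5p and miR-221-3p. All 5 were highest in sham replicate 1, the array with the high empty-spot signal. miR-4331 read 0.0546% there and 0.0238% and 0.0224% in the others, and with plain subtraction it read 0.0355%, 0.0192% and 0.0157%. miR-221-3p, which lies far above the limit and is found in vessel walls, read 0.266%, 0.152% and 0.147%, and with plain subtraction 0.261%, 0.149% and 0.143%. With plain subtraction the highest animal exceeded the lowest 2.05-fold for both miR-489 and miR-146a-5p, compared with 2.26-fold and 2.12-fold before, and the SD of the log2 share of miR-455-5p was 0.35 in place of 0.49. By that measure miR-455-5p was 15th in order and miR-497 took its place among the 5 most uneven.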

How the data were processed

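miRNA was measured in LA tissue of 3 sham pigs on the LC Sciences pig array (miRBase release 20), 1 array per animal, and groups followed the labels. The authors deposited scanner intensity values per spot, linear and neither background-corrected nor normalized, and processed intensity values per probe, whose normalization is not given in the sources used here and which served only as an alternative. Spots were corrected with normexp in limma 3.58.1 (R 4.3.3), with offset 0 for shares and offset 50 for arm ratios, and repeat spots were averaged. No normalization between arrays was applied to the shares. Arm ratios were tested with lmFit and eBayes, intercept only, with Benjamini-Hochberg adjustment over 45 pairs, on code tested on simulated data. A lower bound on a fold sets the bright arm against the dim arm's own signal or the lowest signal of a detected probe, whichever was higher, on the scale of the arm ratios. The array number limits precision. Gene neighbours came from RefSeq for Sscrofa11.1, used for names only. Shares were computed in Python 3.11.15 and plotted with matplotlib 3.10.9.

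miRNAs were named by rule: the 25 brightest probes, the 5 most biased hairpins each way, the 5 most and 5 least variable probes, those nearest the detection limit, leading or undetected list members and the 10 brightest seed families. Other miRNAs named were chosen after their values were seen. The members and lists were chosen with earlier results of these data known.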

Additional observations from a re-analysis of the deposited data

Results flagged for a closer look

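The array also carries 4 probes for 5S ribosomal RNA among its control spots, which entered no share. They were well above background on all 3 sham arrays. Their mean background-corrected signals over the sham animals were 15016.5, 25013.9, 6508.75 and 51849 scanner units for the probes numbered 1 to 4. The brightest of them was between 1.92 and 2.01 times as bright as the brightest miRNA probe of the same array, and the dimmest was between 0.190 and 0.296 times as bright.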

How the results depend on the processing

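miR-133a-3p was the brightest probe under all 8 other ways of computing the signal share, and the 25 brightest probes were the same 25. Without sham replicate 2 or 3, 24 of the 25 remained. The share of the 10 brightest probes ranged from 33.6% without background correction to 36.1% with subtraction of nearby empty spots, and from 33.9% to 36.8% when 1 animal was left out. The number of probes detected on all arrays ranged from 116 at 5 SD to 153 against the 15 nearest empty spots, and was 126 without sham replicate 2 or 3 and 160 without sham replicate 1. The number detected on no array ranged from 128 to 167. The arm calls were 24 towards 5p and 20 towards 3p for the same pairs under other offsets, floors, the processed values, quantile normalization, another prior and each animal left out. Without a filter they were 34 and 25 of 80 pairs, and with both arms required above background 5 and 6 of 12 pairs, a smaller number because fewer pairs were tested. No pair changed sign, but sizes against undetected arms moved, as for miR-30c from 6.32 to 8.21 with plain subtraction (log2). Sizes could also move where both arms were detected on all arrays. For miR-145 the mean log2 ratio was 5.79, and plain subtraction gave a larger difference of 90.2-fold. Summed shares of dim lists followed the background correction: the nervous system list held 0.0876% here, 0.00654% with plain subtraction and 0.209% with none. No paired analysis was possible because only the sham group was used, so replicate numbers join no samples. Depth of signal over background, above all on sham replicate 1, limits statements on probes under about 0.05% of the signal.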

Other observations

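The first base and the GC content of the target miRNAs were used in no rule above. A 5′ uridine, the base that human Argonaute proteins favour at the first position, began 145 of the 322 sequences (45.0%). These held 63.3% of the signal and 18 of the 25 brightest probes, among them both miR-133 probes. Of the 145, 43.4% were detected on all arrays, near the 39.1% of all probes. For sequences that began with A or C the proportions were 38.4% and 37.3%. Sequences that began with G numbered 24, of which 5 were detected on all arrays and 18 on none, against 39.1% and 45.0% of all probes. Sequences that began with A numbered 86 and held 24.4% of the signal, and the 67 that began with C held 8.35% and none of the 25 brightest places. Among the 44 called arm pairs, the brighter arm began with U in 25 and the dimmer arm in 5, while the dimmer arm began with C in 19 and the brighter arm in 5. These are descriptions of probes that share seeds and families, and no test was made.

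The GC content of the target had a Spearman's rho of 0.09 with the signal share over all 322 probes and of -0.18 over the 126 probes detected on all arrays, both given as descriptions. The median GC content was 47.6% in the 126 probes and 47.8% in the 145 probes detected on no array.

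miR-10b and miR-10a-5p, which lie in HOX gene clusters, were each well above background on 1 array.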
